A study of Mus musculus with 4 samples.

Results

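E2F transcription factors and the pocket proteins that hold them in check decide when a cell copies its DNA. The 10 genes described here are E2f1 to E2f8, Rb1 and Rbl1, taken by symbol, and all 10 of 10 were listed in each of 8 tables of 20062 genes. The tables hold the authors' own comparisons between clusters of single cells, named c1 to c7, from purified hematopoietic stem cells of mouse bone marrow. The 4 samples were 2 old and 2 young, from mice isolated at steady state, and every mouse carried Gfp-Lc3, the autophagosome protein LC3 fused to green fluorescent protein. Per the labels' protocols, cells went to droplet sequencing or, sorted as single cells, to SmartSeq2; there the old cells were sorted as AThi, ATmid or ATlo. The sources used here give neither the promoter behind the fusion gene nor the assay from which the tables came.

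Of the 8 comparisons, 7 set a cluster against the cells outside it and the other set c1 against c2. The tables hold no sample or age, so old and young were not compared. No value has a replicate, a standard error or a known depth. A gene counts as called if its adjusted p-value, as the authors computed it, lay under 0.05. Fold changes are log2 values that the authors limited to between -4 and 4, so 4 or -4 means a difference of 16-fold or more. If the clusters were drawn on the same expression values, a call between them is no independent test. The 7 comparisons also share cells, since each cluster is part of the rest for the other 6.

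E2F factors bind DNA next to the start of genes for DNA synthesis and cell division, mostly as a dimer with a DP protein. E2F1, E2F2 and E2F3 are known as activators and are bound by the retinoblastoma protein RB1. E2F4 and E2F5 are known mainly as repressors that work with pocket proteins such as p107, the product of Rbl1. E2F6 lacks the pocket-binding region and represses through Polycomb-like complexes, and the atypical E2F7 and E2F8 repress without a DP partner. Cyclin-dependent kinases release E2F by phosphorylating the pocket proteins. Most adult blood stem cells are quiescent, the state in which these repressors are held to dominate.

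The clusters were checked against marker genes first. Stem cell markers were called higher for 5 of 6 genes in c1 and 4 of 6 in c2. In c2, 1 was called lower, Slamf1 at -0.67 in the authors' deposited table. They were called lower for 6 of 6 genes in c3, 5 of 6 in c4 and 6 of 6 in c5 and c6. Proliferation markers were called higher for 3 of 4 genes in c3, 4 of 4 in c4 and 3 of 4 in c5. All 4 genes are also in the lists of cell cycle targets described below, so that part of the check is not independent of them. Mki67 (the proliferation antigen Ki-67) was at 0.08 and not called in the authors' deposited table of c3, whereas that of c4 had it at 4, the limit. Erythroid markers were called higher for 5 of 6 genes in c3 and 2 of 6 in c4. Neutrophil markers were called higher for 6 of 6 genes in c5 and in c6, granulocyte-monocyte markers for 4 of 5 in c5, and B-lineage markers for 5 of 7 in c7. The granulocyte-monocyte gene not called in c5, Prtn3, was called higher in c1 at 1.54 in the authors' deposited table, where the other 4 were called lower. Stem cell markers were also called lower for 4 of 6 genes in c7. So stem cell markers went against the samples' stem cell label most clearly in c6 and c7, with a median of -4 in each. Their median was -0.92 in c3, -0.62 in c4 and -1.76 in c5. The cells outside these clusters were mostly c1 and c2 by the estimate below, so lower does not mean absent. Granulocyte-monocyte and neutrophil markers were carried by c5, neutrophil markers by c6 and B-lineage markers by c7. Megakaryocyte markers were called higher for 3 of 4 genes in c3 and in c4. Lists of 4 genes each for T and NK cells, macrophages, mast cells and stroma had at most 2 called higher in any cluster. Those 2 were the macrophage markers Adgre1 and Vcam1 in c5, both at 4, the limit, in the authors' deposited table. The part of other cell types in the results below was not tested. By an estimate from the tables, 40.7% of cells were in c1 and 34.0% in c2, 12% were in c3 and 10.2% in c4, and the rest were 1.68% in c5, 0.984% in c6 and 0.350% in c7.

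E2f1, E2f2, E2f3, E2f7, E2f8 and Rbl1 were low in the stem cell clusters c1 and c2 and high in c3 and c4, while E2f5 ran the other way and E2f4, E2f6 and Rb1 had smaller differences in these 4 clusters. In c5, which also had proliferation markers called higher, fewer of those 6 genes were called. E2f2 and E2f8 were called higher there and E2f1, E2f3, E2f7 and Rbl1 were not called. The cells outside c5 include c3 and c4. By the levels estimated below, each of the 6 genes was higher in c5 than in c1 and c2, though E2f3 only slightly. Of the 10 genes, 9 were called lower and 1 higher in c1, where 43% of all genes were called, 29.7% lower and 13.3% higher. In c2, 9 were called lower and none higher, where 37.2% of all genes were called, 21.4% lower and 15.9% higher. In c3, 9 were called higher and 1 lower, where 28.3% of all genes were called, 18.1% higher and 10.2% lower. In c4, 8 were called higher and 1 lower, where 34.9% of all genes were called, 24.3% higher and 10.6% lower. The median over the 10 genes was -1.07 in c1, -0.80 in c2, 1.23 in c3 and 1.13 in c4. Over the 10027 genes whose mean expression was not under the median, named expressed genes below, it was -0.12, -0.00373, 0.07 and 0.19 in the same 4 tables. All of the 10 but E2f2 were expressed genes, which were called more often: 47.7% were lower in c1, 31.5% lower in c2, 32.5% higher in c3 and 44.2% higher in c4.

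**Figure D1:**
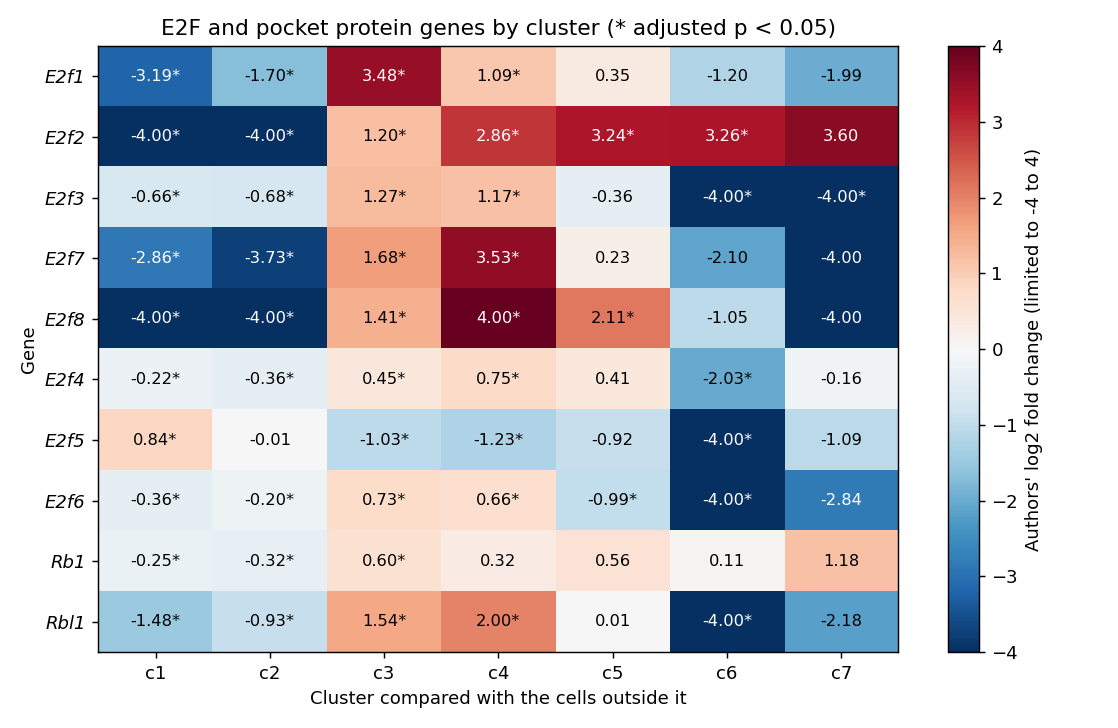
Authors' log2 fold change of each gene (rows) in each cluster against the cells outside it (columns), with a colour scale from -4 to 4 and an asterisk where the adjusted p-value was under 0.05. E2f5 is the only row that is called higher in c1 and lower in c3 and c4, and E2f2 is the only one called higher in c6.

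Levels in each cluster were rebuilt from these tables. A level is the cluster's mean expression on a scale on which all genes sum to 10000, and it was solved from the overall mean, the fold change and the share of cells. Levels are compared here between clusters for a gene, not between genes, since the tables do not say whether values were adjusted for gene length. Where a fold change was at its limit, the level is a bound. No spread over samples is known, so neighbours in the order of the levels could not be set apart by a test over samples. The authors compared c1 and c2 directly, but that comparison also holds no sample.

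Among the activators, E2f1 peaked in c3. Its estimated level was 0.0238 in c1, 0.0557 in c2, 0.697 in c3, 0.264 in c4, 0.176 in c5, 0.0606 in c6 and 0.0350 in c7. The highest cluster, c3, was thus 29.3 times the lowest, c1. E2f1 was higher by 3.48 in the authors' deposited table of c3 (adjusted p = 8.89e-163), where its p-value ranked 35 among the genes higher in c3. The authors' deposited table of c4 gave 1.09 (adjusted p = 4.03e-12) and that of c1 gave -3.19. E2f1 lies on chromosome 2 from 154559407 to 154569892 (minus strand), as do all positions here on GRCm38.

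E2f2 was the activator that did not follow the others. Its estimated level was at most 0.00455 in c1 and at most 0.00413 in c2, then 0.0895 in c3, 0.200 in c4, 0.372 in c5, 0.397 in c6 and 0.525 in c7. The 3 highest levels were therefore in the small clusters that carried granulocytic or B-lineage markers. The authors' deposited tables gave 2.86 in c4, 3.24 in c5 (adjusted p = 1.44e-11) and 3.26 in c6 (adjusted p = 1.93e-05), all called. A value of 3.60 in the authors' deposited table of c7 was not called (adjusted p = 0.133).

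In the same 3 clusters neutrophil markers were at the upper limit for 6 of 6 genes in c5 and in c6, and B-lineage markers for 6 of 7 in c7, 5 of them called. The stem cell markers stood at the lower limit for 6 of 6 in c6. The part of these cells in the E2f2 values was not tested. E2f2, on chromosome 4 from 136172394 to 136196057, had the lowest overall mean of the 10 genes, 0.0450 per 10000, on a scale that may not be adjusted for gene length.

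E2f3 had nearly the same level in c3 and c4. Its estimated level was 0.564 in c3 and 0.548 in c4, against 0.204 in c1, 0.196 in c2 and 0.214 in c5, and at most 0.0173 in c6 and 0.0172 in c7. The authors' deposited tables gave 1.27 in c3 (adjusted p = 1.47e-40) and 1.17 in c4 (adjusted p = 1.08e-33). Its values in c1 and c2 lay nearer 0 than those of E2f1 and E2f2, at -0.66 in c1 and -0.68 in c2 in the authors' deposited tables. It lies on chromosome 13 from 29906575 to 29986063.

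The atypical repressors E2f7 and E2f8, themselves known as E2F targets, were highest in c4. For E2f7 the estimated level was 0.0146 in c1, 0.00757 in c2, 0.174 in c3, 0.384 in c4, 0.0802 in c5, 0.0162 in c6 and at most 0.00431 in c7. The authors' deposited tables gave it 1.68 in c3 and 3.53 in c4 (adjusted p = 1.58e-97). For E2f8 the estimated level was at most 0.00913 in c1 and 0.00829 in c2, 0.200 in c3, at least 0.573 in c4, 0.369 in c5, 0.0438 in c6 and at most 0.00567 in c7. The authors' deposited tables put E2f8 at 1.41 in c3 and at 4, the limit, in c4. In c5 it was called higher at 2.11 (adjusted p = 5.68e-08) in the authors' deposited table, where E2f7 was at 0.23 and not called. E2f7 lies on chromosome 10 from 110745439 to 110787384 and E2f8 on chromosome 7 from 48866429 to 48881596.

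The classical repressors E2f4 and E2f5 differed from each other. E2f4, the most abundant E2F of quiescent cells in many tissues, had an estimated level of 0.327 in c1, 0.302 in c2, 0.471 in c3, 0.566 in c4, 0.474 in c5, 0.0887 in c6 and 0.323 in c7. From c1 to c5 these levels spanned no more than 1.87-fold. The authors' deposited tables called it higher in c3 at 0.45 and in c4 at 0.75 (adjusted p = 9.53e-19), and lower in c1 at -0.22 and in c2 at -0.36. E2f4 lies on chromosome 8 from 105297663 to 105305370.

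E2f5 was the member that was high where the others were low. Its estimated level was 0.169 in c1, 0.124 in c2, 0.0647 in c3, 0.0563 in c4, 0.0664 in c5, at most 0.00785 in c6 and 0.0585 in c7. The authors' deposited tables called it higher in c1 at 0.84 (adjusted p = 8.07e-21), and in c2 it stood at -0.01 and was not called. The authors' deposited tables called it lower in c3 at -1.03 (adjusted p = 5.51e-08) and in c4 at -1.23 (adjusted p = 5.28e-09). It lies on chromosome 3 from 14578641 to 14606309.

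E2f6, the Polycomb-linked repressor, was highest in c3 and c4 and, unlike E2f3, was called lower in c5. Its estimated level was 0.250 in c1, 0.267 in c2, 0.450 in c3, 0.438 in c4, 0.148 in c5, at most 0.0185 in c6 and 0.0412 in c7. The authors' deposited tables gave 0.73 in c3, 0.66 in c4 and -0.99 in c5, all called. It lies on chromosome 12 from 16810963 to 16839742. Of 9 genes for partners of E2F6 in its repressor complex, 4 were called higher and none lower in c3, and 4 higher and 2 lower in c4. With 32.5% of expressed genes called higher in c3 and 44.2% in c4, these counts were near the background. The authors' deposited tables gave Cbx3, a heterochromatin protein, 0.79 in c3 and 1.20 in c4, and Pcgf6, a Polycomb ring finger protein, 1.13 in c3. That of c2, also the authors' deposited table, had Pcgf6 at -0.65 and Mga, the DNA-binding scaffold of the complex, at 0.34, both called.

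The pocket proteins also parted. Rbl1 had an estimated level of 0.105 in c1, 0.136 in c2, 0.513 in c3, 0.664 in c4, 0.219 in c5, at most 0.0137 in c6 and 0.0478 in c7. Rbl1 was called in the authors' deposited tables as higher in c3 at 1.54 (adjusted p = 3.12e-56) and in c4 at 2.00 (adjusted p = 3.05e-87), and lower in c1 at -1.48 and in c2 at -0.93. Rb1 had an estimated level of 0.124 in c1, 0.119 in c2, 0.198 in c3, 0.168 in c4, 0.203 in c5, 0.149 in c6 and 0.311 in c7. Over all 7 clusters these spanned 2.62-fold, the narrowest range of the 10 genes. The authors' deposited tables called Rb1 higher in c3 at 0.60 and lower in c1 at -0.25 and in c2 at -0.32. At 0.32 in c4 it was not called in the authors' deposited table (adjusted p = 0.0641).

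The remaining pocket protein gene, Rbl2, encodes p130, which is known to accumulate in quiescent cells. It is not among the 10 genes but among the partners of the MuvB complex, and it is named here after its values were seen. The authors' deposited tables called it higher in c2 at 0.34 (adjusted p = 3.65e-09), lower in c3 at -0.26 and lower in c6 at -1.29. At -0.11 in c1, -0.05 in c4, -0.48 in c5 and -1.38 in c7 it was not called in the authors' deposited tables. Rb1 lies on chromosome 14 from 73183673 to 73325822 and Rbl1 on chromosome 2 from 157145893 to 157204534, both on the minus strand.

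**Figure D2:**
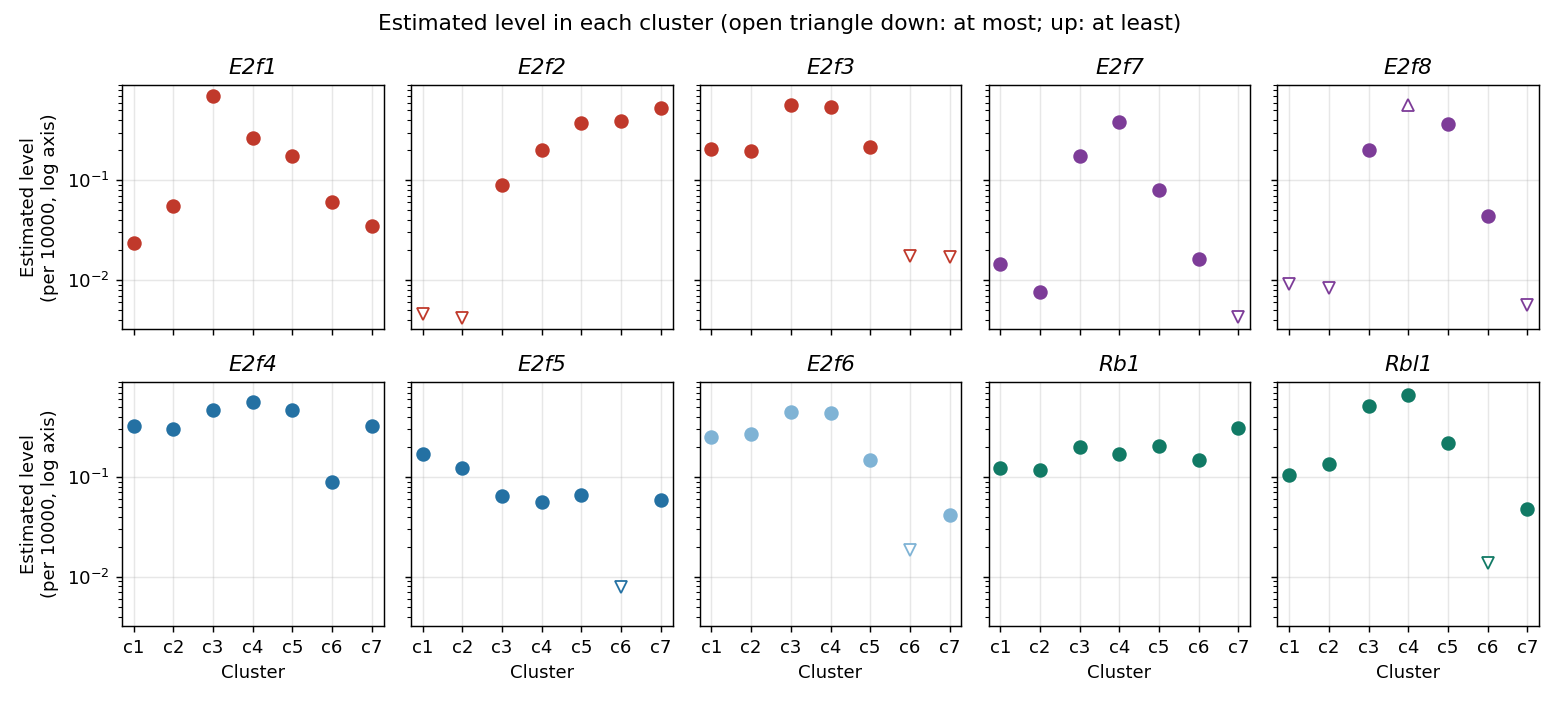
Estimated level of each gene (per 10000, log axis) in the 7 clusters, with 1 panel per gene and colours by role. Open triangles are bounds where the fold change was at its limit. E2f1 peaks at 0.697 in c3, E2f8 reaches at least 0.573 in c4, and Rb1 stays between 0.119 and 0.311.

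The stretches around the first start of E2f3, E2f7, E2f8 and Rbl1 are shown as examples, chosen because these genes were called higher in c3 and c4 and held a known word for E2F or MuvB there. Each runs from 250 bases before to 50 after a RefSeq start on GRCm38.p6. E2f3 is chr13:29986014-29986313 (minus strand), E2f7 chr10:110745189-110745488 (plus), E2f8 chr7:48881547-48881846 (minus) and Rbl1 chr2:157204485-157204784 (minus). Capitals mark, on either strand, the 4 E2F words TTTCCCGC, TTTCGCGC, TTTGCCGC and TTTGGCGC, and TTTGAA, the core of the cell cycle homology region (CHR) bound by MuvB; no capitals overlap.
E2f3: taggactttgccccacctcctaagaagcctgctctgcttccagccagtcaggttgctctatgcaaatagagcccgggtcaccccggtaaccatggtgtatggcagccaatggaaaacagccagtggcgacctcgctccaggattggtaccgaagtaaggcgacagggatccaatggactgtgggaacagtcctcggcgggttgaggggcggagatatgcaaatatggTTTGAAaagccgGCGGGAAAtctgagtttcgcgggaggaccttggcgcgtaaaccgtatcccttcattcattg
E2f7: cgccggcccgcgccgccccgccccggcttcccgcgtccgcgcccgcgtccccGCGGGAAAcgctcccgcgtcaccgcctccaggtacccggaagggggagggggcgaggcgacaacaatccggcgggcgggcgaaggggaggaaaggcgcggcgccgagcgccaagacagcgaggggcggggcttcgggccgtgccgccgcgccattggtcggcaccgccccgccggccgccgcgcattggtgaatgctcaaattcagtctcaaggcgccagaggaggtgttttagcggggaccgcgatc
E2f8: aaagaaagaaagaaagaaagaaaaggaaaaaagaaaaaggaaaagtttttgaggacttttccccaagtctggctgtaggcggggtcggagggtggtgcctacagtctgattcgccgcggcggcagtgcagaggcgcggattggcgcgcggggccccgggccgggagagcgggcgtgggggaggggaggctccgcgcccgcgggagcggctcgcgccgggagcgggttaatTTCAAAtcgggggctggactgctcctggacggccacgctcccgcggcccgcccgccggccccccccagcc
Rbl1: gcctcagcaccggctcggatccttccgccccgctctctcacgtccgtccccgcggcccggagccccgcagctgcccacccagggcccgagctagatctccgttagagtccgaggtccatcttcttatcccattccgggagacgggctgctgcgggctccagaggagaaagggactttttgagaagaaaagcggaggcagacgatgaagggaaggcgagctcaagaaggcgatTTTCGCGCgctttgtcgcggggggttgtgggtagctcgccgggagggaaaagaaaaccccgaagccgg
With the start as base 0, the word TTTCGCGC of Rbl1 ran from base -18 to -11. E2f3 held TTTCCCGC on the other strand from base -11 to -4, next to TTTGAA from base -23 to -18. In E2f8 no E2F word was found, and TTTGAA stood on the other strand from base -20 to -15. E2f7 held TTTCCCGC on the other strand from base -198 to -191.

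RefSeq windows were matched for 7 of the 10 genes, 9 windows in all, and E2f4, E2f5 and Rb1 had none. An E2F word stood in 4 of the 9 windows, compared with 2.26% of 32851 windows of the same length. TTTGAA stood in 3 of the 9, compared with 17.9% of all windows. CCAAT, the word of the NF-Y factor, stood in 5 of the 9, compared with 37.4% of all. E2f2, also called higher in c3 and c4, held TTTGGCGC from base 39 to 46 of its first window and TTTGAA from base -31 to -26 of its second, an internal start. The second E2f3 window, also an internal start, and the E2f6 window held none of these words. The E2f1 window also held none, but its RefSeq start lies 466 bases downstream of the GENCODE start, so it does not show the region before that start. A match is a string of letters and not evidence of binding.

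Between c3 and c4, 5 of the 10 genes had the higher estimated level in c3 and 5 in c4. The difference was not tested by the authors' tables, so the values are a description. E2f1 was 2.64 times higher in c3 than in c4 by estimated level. The c3 level was 0.447 of the c4 level for E2f2, 0.453 for E2f7 and 0.350 or less for E2f8. The estimated log2 ratio of c3 to c4 was 0.04 for E2f3, 0.04 for E2f6, 0.20 for E2f5, 0.23 for Rb1, -0.27 for E2f4 and -0.37 for Rbl1.

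Genes that E2F and its repressor complexes are known to control also differed between c3 and c4. Of 26 E2F targets of the G1/S switch, which license and copy DNA, 15 had a higher estimated level in c3 and 11 in c4. Their log2 ratio of c3 to c4 ranged from -2.84 or less for Ccna2, at the limit in c4, to 1.15 for Mcm2. Of 18 late cell cycle targets of DREAM, the repressor complex of MuvB with p107 or p130 and E2F4, none was higher in c3 and 18 were higher in c4. Every one of the 18 was at the upper limit in c4, so their ratios, from -4.68 for Ube2c to -1.62 for Top2a, are upper bounds. Of expressed genes, 3834 had the higher level in c3 and 6193 in c4, with a median ratio of -0.09.

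**Figure D3:**
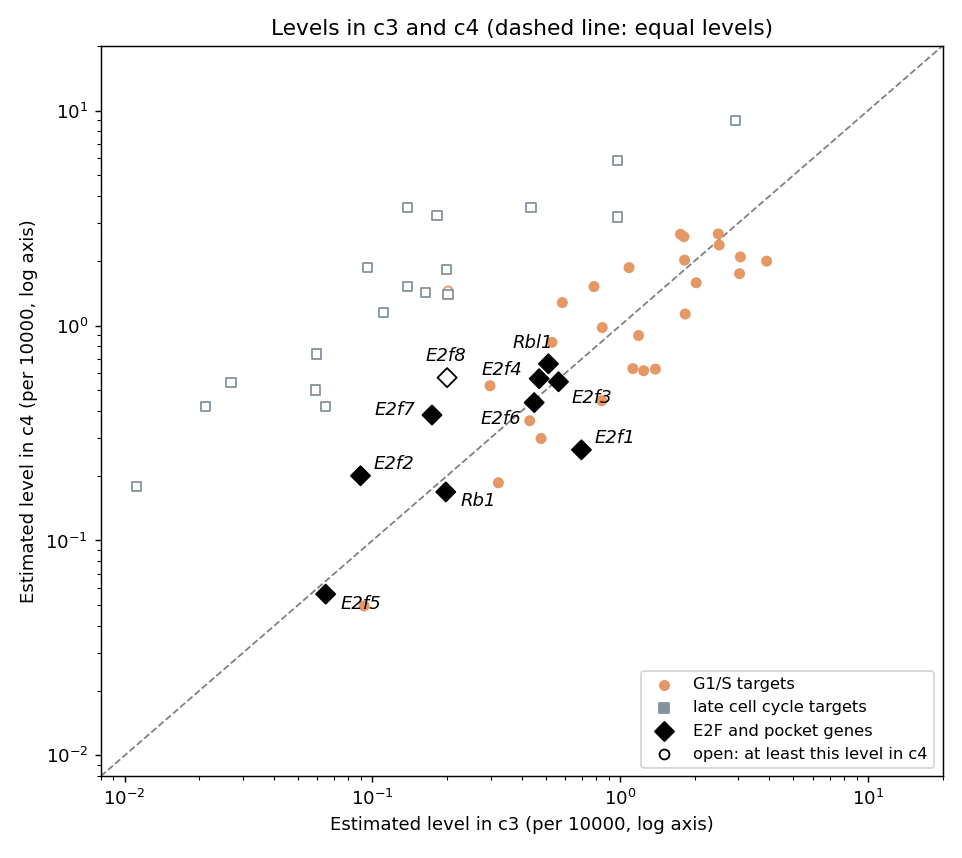
Estimated level in c3 (horizontal, log axis) and in c4 (vertical, log axis), per 10000, of the 10 genes and of the G1/S and late target lists. Open symbols are lower bounds in c4. E2f1 lies below the line of equal levels, as do 15 of the 26 G1/S targets. E2f2, E2f7 and E2f8 lie above the line, as do 11 G1/S targets and all 18 late targets.

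Both target lists were called for most of their genes in c1 to c4. G1/S targets were called lower for 26 of 26 genes in c1 (median -2.13) and in c2 (-1.73), and higher for 25 of 26 in c3 (2.27) and 26 of 26 in c4 (1.74). Largest in the authors' deposited table of c3 were Orc1, a subunit of the origin recognition complex, at 3.32, Uhrf1, which keeps DNA methylation through replication, at 3.20 and Cdt1, a licensing factor, at 3.16. The largest in that of c4, again the authors' deposited table, were Ccna2, cyclin A, at 4, Tk1, thymidine kinase, at 3.96, Rrm2, a ribonucleotide reductase subunit, at 3.68 and Brca1, a DNA repair gene, at 3.45. Late targets were called lower for 18 of 18 genes in c1 (median -4) and c2 (-3.84), for 11 lower and 2 higher in c3 (-0.69), and higher for 18 of 18 in c4 (4). The authors' deposited table of c3 gave -2.15 for the ubiquitin ligase partner Ube2c, -1.81 for the kinase Plk1, -1.78 for the kinesin Kif20a and -1.75 for the cyclin Ccnb2. The median over all genes of a table was -0.14 in c1, -0.06 in c2, -0.04 in c3 and 0.01 in c4.

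Partners and upstream regulators varied in the same way for some genes. Tfdp1, which encodes the DP1 partner, was called lower at -0.85 in c1 and -1.02 in c2 and higher at 1.51 in c3 and 1.37 in c4 in the authors' deposited tables. Tfdp2, which encodes DP2, was called at values between -0.23 and 0.26 in those 4 authors' deposited tables. Of 8 genes of MuvB and its partners, 6 were called lower and none higher in c1, and 5 lower and 1 higher in c2. In c3, 4 were called higher and 2 lower, and in c4, 7 higher and none lower. Among expressed genes 47.7% were called lower in c1 and 31.5% in c2, and 32.5% higher in c3 and 44.2% in c4. Mybl2 and Foxm1, which join MuvB as activators of late genes, parted in c3: the authors' deposited table gave 2.27 for Mybl2 and -0.64 for Foxm1. For c4 the authors' deposited table had them at 3.11 and 4, and the core subunits Lin9 and Lin54 at 2.00 and 1.68.

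Of 8 genes for RB kinases and their cyclins, 6 were called higher and none lower in c3, and 5 higher and 2 lower in c4. The cyclin E genes led in c3, at 3.12 for Ccne2 and 2.97 for Ccne1 in the authors' deposited table, where the kinase genes Cdk4 and Cdk2 were at 1.12 and 0.96. The 2 lower in c4 were the D-type cyclin genes Ccnd1 at -1.80 and Ccnd2 at -1.51 in the authors' deposited table. In c1, 4 were called lower and 1 higher, Ccnd1 at 0.96 in the authors' deposited table, and in c2, 7 were called lower and 1 higher. CDK inhibitor genes were called higher for 2 and lower for 3 of 7 in c1, 2 and 4 in c2, 1 and 3 in c3, and 4 and 1 in c4. The authors' deposited table of c4 gave 4 for Cdkn2a, whose estimated level there was at least 0.00734, 2.18 for Cdkn2c and 1.58 for Cdkn2d, all inhibitors of the D-type cyclin kinases, and 0.74 for Cdkn1a. Of 5 listed E2F1 targets with roles in cell death, 3 were called higher and 1 lower in both c3 and c4. The BH3-only gene Bbc3 was the lower one, at -0.51 in c3 and -0.83 in c4 in the authors' deposited tables. Beside these lists, 47.7% of expressed genes were called lower in c1 and 31.5% in c2, and 32.5% higher in c3 and 44.2% in c4. The 4 of 8 RB kinase and cyclin genes lower in c1 were near that share. Whether lists this short differ from the background was not tested.

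**Figure D4:**
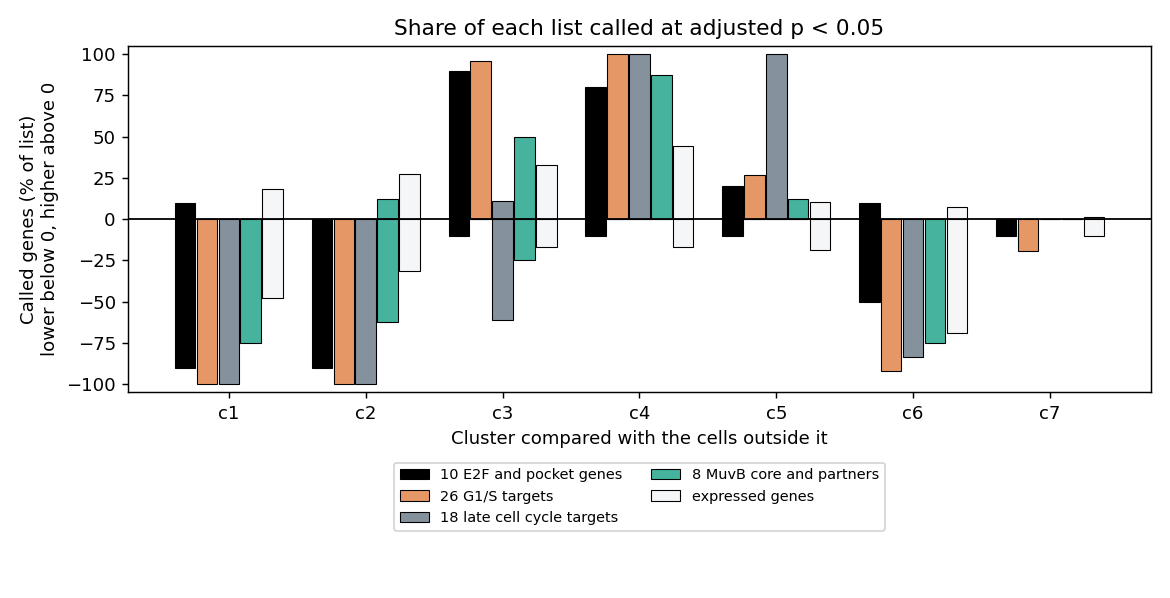
Percentage of each gene list called higher (above 0) or lower (below 0) at an adjusted p-value under 0.05 in each cluster against the cells outside it, beside expressed genes. All 26 G1/S targets are called lower in c1 and c2, and the 18 late targets are called higher in c4 and in c5.

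In the direct comparison of c1 with c2, the 2 stem cell clusters, 6 of the 10 genes were called, where 37.4% of all genes and 58.9% of expressed genes were, so the members' share was near that of expressed genes. Of these 3 were higher in c1, beside 15.4% of all genes, and 3 were lower, beside 22% of all genes. E2f1 was lower in c1 than in c2, at -1.22 in the authors' deposited table (adjusted p = 1.10e-11), with estimated levels of 0.0238 in c1 and 0.0557 in c2. E2f8 at -1.29 (adjusted p = 0.0252) and Rbl1 at -0.37 (adjusted p = 0.000263) were also called lower in c1 in the authors' deposited table. E2f5 was called higher at 0.46 in the authors' deposited table (adjusted p = 2.68e-07), from levels of 0.169 in c1 and 0.124 in c2.

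E2f7 was called higher in c1 at 0.94 in the authors' deposited table (adjusted p = 0.00493), opposite in sign to its close relative E2f8. E2f2 was called higher in c1 at 2.12 in the authors' deposited table (adjusted p = 0.0121), although both clusters lay at the lower limit against the rest. The levels behind the calls of E2f2, E2f7 and E2f8 were low: in c1 and c2, E2f7 was at 0.0146 and 0.00757, E2f8 at no more than 0.00913 and 0.00829, and E2f2 at no more than 0.00455 and 0.00413. E2f3 at 0.05, E2f4 at 0.11, E2f6 at -0.09 and Rb1 at 0.06 were not called in the authors' deposited table.

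The known targets of E2F and DREAM that differed between the 2 clusters were lower in c1. Of the 26 G1/S targets 13 were called lower in c1 than in c2 and none higher (median -0.22). Of the 18 late targets 8 were lower and none higher (-0.28). The median over all genes was -0.03. Among expressed genes 37.2% were called lower and 21.8% higher, so the counts of lower targets were not far from the background. By the authors' deposited table the checkpoint kinase gene Chek1 was at -0.64, the phosphatase gene Cdc25a at -0.52, and Ezh2, a Polycomb methyltransferase, at -0.50. Late targets with the largest values in the authors' deposited table were Cdk1, the mitotic kinase, at -1.72, Ect2, a cytokinesis factor, at -1.27, Cenpa, the centromere histone, at -1.09 and Kif11, a spindle kinesin, at -1.07. MuvB genes were called lower for 5 of 8 and higher for none, among them Rbl2 at -0.29 in the authors' deposited table (adjusted p = 1.39e-07); at an adjusted p under 0.01, 1 of the 8 was called. Of the RB kinase and cyclin genes 3 were called higher and 2 lower, with Ccnd1 at 1.17, Cdk6 at 0.85 and Ccnd2 at -0.56 in the authors' deposited table.

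**Figure D5:**
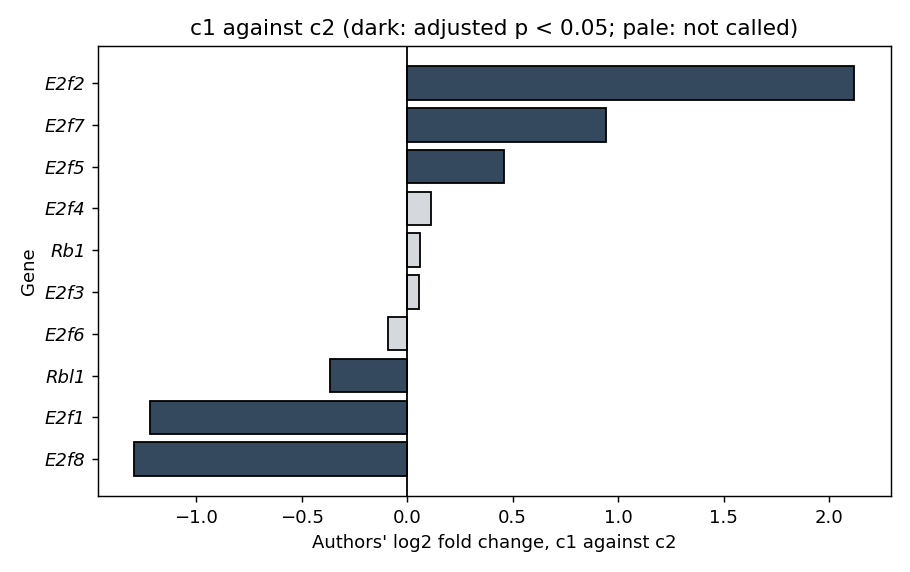
Authors' log2 fold change of the 10 genes in c1 against c2, with 1 bar per gene, and positive values mean higher in c1. Dark bars mark an adjusted p-value under 0.05. E2f2, E2f7 and E2f5 are called higher in c1, and Rbl1, E2f1 and E2f8 lower.

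In the rarer clusters fewer of the 10 genes were called. In c5, E2f2 and E2f8 were called higher and E2f6 lower, so 2 genes were higher and 1 lower, where 16.5% of all genes were called, 7.17% higher and 9.3% lower. Late targets were nonetheless called higher for 18 of 18 genes in c5 (median 1.74) and G1/S targets for 7 of 26 (0.35). The authors' deposited table of c5 gave 2.82 for Ube2c, 2.21 for Birc5, which encodes survivin, and 2.46 for Rrm2.

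In c6, 5 of the 10 genes were called lower and 1 higher, where 40.9% of all genes were called, 35.7% lower and 5.2% higher. Among expressed genes 69% were called lower and 7.53% higher, so the count of lower members was under that share. E2f3, E2f5, E2f6 and Rbl1 were at the lower limit in the authors' deposited table, and E2f2 at 3.26 was the higher one. A limit was also reached by 2870 of the 10027 expressed genes in c6. The median of expressed genes in c6 was -2.24, so E2f4, called lower at -2.03 in the authors' deposited table, stood at 0.21 when centred on that median. Rb1 was at 0.11 and not called in the authors' deposited table of c6, and 2.35 above the median of expressed genes. G1/S targets were called lower for 24 of 26 genes (median -3.74) and late targets for 15 of 18 (-3.72), beside the 69% of expressed genes.

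In c7, with the fewest cells, E2f3 was called lower at the limit of -4 in the authors' deposited table (adjusted p = 0.0188), and no other member was called. G1/S targets were called lower for 5 of 26 genes in c7 (median -2.52), and late targets for none of 18 (-3.91). In each list 9 genes were at the lower limit, so few calls in c7 do not mean values near those of the rest. Of all genes 6.18% were called in c7, 5.16% lower and 1.02% higher. The median of expressed genes was -0.92 in c7. Rb1 at 1.18 and E2f1 at -1.99 were not called in the authors' deposited table (adjusted p = 0.738 and 0.571).

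Genes with the most similar profile were sought for each member among expressed genes. The measure was the smallest root mean square difference of log2 fold change over the 7 cluster tables. The members themselves and predicted genes (Gm numbers and Rik names) were left out of the search. For E2f3 the closest was Pold2, at a difference of 0.10, followed by Ogfod3 at 0.15 and Palb2 at 0.18. For Rbl1 they were Mms22l at 0.21, Skp2 at 0.23 and Pola1 at 0.26, and for E2f8 they were Rrm2 at 0.46, Neil3 at 0.68 and Pclaf at 0.72. E2f7 was closest to Aunip at 0.59, Mybl2 at 0.64 and Ercc6l at 0.71. E2f1 had no near match: Chek1 at 0.99, Cdc45 at 1.02 and Ccne2 at 1.03 were the closest. E2f2 had the loosest ones, with Ifi27l2a at 1.75, Cd52 at 1.76 and Fam46a at 1.90.

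The other 4 genes had closer matches than E2f1 or E2f2. E2f4 was nearest to Fam96a at 0.09, Gtf2f1 at 0.10 and Prpf38a at 0.12, E2f6 to Ppif at 0.10, Zfp422 at 0.12 and Serf1 at 0.17, and Rb1 to Trappc10 at 0.19, Polg at 0.23 and Srf at 0.24. E2f5 was nearest to Lncpint at 0.24, Ksr2 at 0.25 and Trim14 at 0.30. A value at the same limit in both genes counts as no difference and draws pairs together. The profiles share all cells and libraries, so likeness is a description.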

How the data were processed

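Purified hematopoietic stem cells from 2 old and 2 young Gfp-Lc3 samples were profiled by single-cell RNA sequencing. The files are 8 tables of the authors' comparisons. The sources used here do not give their assay, cell filters, doublet treatment, clustering or test. The tools named, with no role, are GSNAP, HTSeq and Scanpy, and the build GRCm38.p4, per the submitters' processing notes. The authors' deposited log2 mean expression was the same in all tables, summed to 10000 as powers of 2, and held an error text for 8 genes. The deposited log2 fold changes were limited to -4 and 4. The authors' deposited p-values were adjusted over all 20062 genes by the Benjamini-Hochberg method, to within 4.39e-15. Depth is unknown, so no interval was given.

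No new test was made. Shares of cells were fitted as the weights at which the cluster levels add up to the mean of all cells, in 990 genes of log2 mean between -5 and -3 and no value at the limit (SciPy 1.17.1), checked on simulated data. Rebuilt levels returned the overall mean of each of the 10 genes to a ratio between 0.997 and 1.06, and the c1 against c2 values of those 990 genes with a median absolute difference of 0.00166. All values of c1 to c7 are against the cells outside the cluster. Gene positions are from GENCODE M21 and start-site sequences from RefSeq (GRCm38.p6). Text names the 10 genes, up to 4 called genes of each list with the largest change per table, the 3 most similar genes per member, and markers. The 10 genes and all lists were chosen with earlier results of these data known. Alternatives were a stricter adjusted p, fold change minimums, adjustment over expressed genes, values at the limit left out, other shares and centring. Some named genes are not reported here. Of the E2F1 death target list, 5 of 6 genes were in the tables.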

Additional observations from a re-analysis of the deposited data

How the results depend on the processing

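Counts of called members stayed within 1.5 times under most settings. With a log2 fold change of at least 1, the count was 5 in place of 10 in c1, 4 in place of 9 in c2 and 3 in place of 6 in c1 against c2. Without members at the limit of the fold change, it was 2 in place of 6 in c6 and 0 in place of 1 in c7. In c7 it was also 0 at an adjusted p under 0.01 and 2 when adjusted over expressed genes alone, which leaves out E2f2, where E2f6 was added; these follow from the construction of each setting. With that adjustment Rb1 in c4 and E2f7 in c6 were added too, and at 0.01 the calls of E2f2 and E2f8 in c1 against c2 were lost.

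E2f8 in c1 against c2 was 0.14 when rebuilt from the c1 and c2 tables, opposite in sign to the direct value of -1.29, since both tables held it at the limit. E2f2 was likewise 0.14 in place of 2.12. Centring on the median of expressed genes, chosen after seeing the data, turned E2f4 in c6 from a called -2.03 to 0.21. It also changed the sign of values that were not called: E2f1 (1.04), E2f7 (0.14) and E2f8 (1.19) in c6 and E2f4 in c7 (0.76). Other shares of cells moved no level by more than 1.06-fold, and 7 of the 10 genes were highest in c3 or c4 under each. No paired analysis was possible because the tables hold no column for a sample. Leaving out replicates was not possible for the same reason. With no sample, standard error or cell number, neither the spread between mice nor the depth behind weak genes such as E2f2 could be assessed.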
